A study of Homo sapiens with 24 samples.

Results

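The glucose transporters of the SLC2A family examined here are 8 genes, SLC2A1, SLC2A3, SLC2A6, SLC2A8, SLC2A10, SLC2A11, SLC2A12 and SLC2A13, of 20046 genes named by a single-gene probe on the array. They were chosen by platform symbol, from a family list drawn up with values of these arrays in view. SLC2A3 in particular was chosen for its measured pattern, both that with hormone, being undetected without it, and that under EP300 knockdown. Its values are therefore given as a description with no test. RNA came from C4-2B, a human prostate cancer cell line derived from LNCaP that responds to androgen, and was hybridised to 24 Illumina bead arrays of 1 colour, 1 sample per array. Cells received an siRNA against EP300 (sip300), against CREBBP (siCBP) or a non-specific siRNA (siNS). Each siRNA was followed either by 16 h with 10 nM dihydrotestosterone (DHT), a strong natural androgen, or by no DHT (labelled 0 h). That made 6 groups with 4 arrays in each: sip300, siCBP and siNS cells with DHT, and the same arms without it. All cells, those without DHT included, had spent 3 days in RPMI without phenol red, with 5% charcoal-stripped serum, which is poor in steroids. No vehicle is named for the 0 h samples, so a difference called DHT here may include other effects of those 16 h. The replicates are numbered, with no word on whether each was its own culture, and the p-values therefore rest on a spread among samples that may be technical. All results come from 1 cell line under transient knockdown.

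SLC2A genes encode membrane proteins that let hexoses or related polyols cross a membrane down their gradient, or, for SLC2A13, together with protons. SLC2A1 and SLC2A3 carry glucose across the plasma membrane, and the amount of such carriers can set how fast a cell takes glucose up before hexokinases trap it as glucose 6-phosphate. SLC2A12 was first found in a breast cancer line, and SLC2A6, SLC2A8 and SLC2A10 act largely on inner membranes. EP300 and CREBBP encode p300 and CBP, closely related histone acetyltransferases that many transcription factors recruit, and DHT acts through a nuclear receptor that recruits them.

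Between 17663 and 19830 probes were detected per array, that is, they had a detection p under 0.05 against negative control beads. The 2 slides each held 2 arrays of every group, with mean raw signals of 679 to 896 on slide 1 and 572 to 728 on slide 2. Values below are background-corrected, quantile-normalised log2 signals, called levels, and a difference is a log2 difference ± SE from 1 limma fit over 12438 genes. A gene was called at a Benjamini-Hochberg adjusted 2-sided p under 0.05. The number of arrays, 4 per group, limits the precision. Replicate numbers paired the samples in these data, so adjusted p-values with replicate number as a block in the fit are given beside the others. Every SE is from the fit without a block, also where the adjusted p beside it is from the fit with the block. The comparisons share samples, since each group enters several of them. The siRNA targets were checked first: EP300 fell by 1.19 ± 0.233 in sip300 against siNS cells with DHT (limma adjusted p = 0.00196), to 43.9% of the siNS level, and without DHT by 0.88 ± 0.233 (0.0181), to 54.3%. CREBBP was at 29.9% of the siNS level in siCBP cells with DHT and at 31.1% without it. In sip300 cells CREBBP differed from siNS cells by 0.47 with DHT and 0.52 without it, not called (adjusted p = 0.104 and 0.0819). Of 8 luminal prostate markers with a probe, 6 were detected on all 24 arrays, while 0 of 3 basal markers were detected on any array.

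Of the 12 probes for the 8 genes, 9 were detected on at least 4 arrays and were kept. SLC2A1, SLC2A6, SLC2A8 and SLC2A12 were detected on 24 of 24 arrays each, SLC2A3 on 10, and the brightest of 4 SLC2A11 probes on 19. SLC2A10, a carrier of the endoplasmic reticulum and Golgi, was detected on 2 arrays by 1 probe and on 1 array by the other, and neither probe was tested. SLC2A13, the proton-coupled carrier of myo-inositol, was detected on 0 of 24 arrays. These 2 genes have no level here beyond being not well above background, so 6 of the 8 members were measured and 5 were tested, SLC2A3 being left out of tests. Of the 6 further family genes with a probe, SLC2A2, SLC2A4, SLC2A7, SLC2A9 and SLC2A14 were detected on 0 arrays. SLC2A14 is a near copy of SLC2A3, and its own probe was undetected in all 6 groups.

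**Figure D1:**
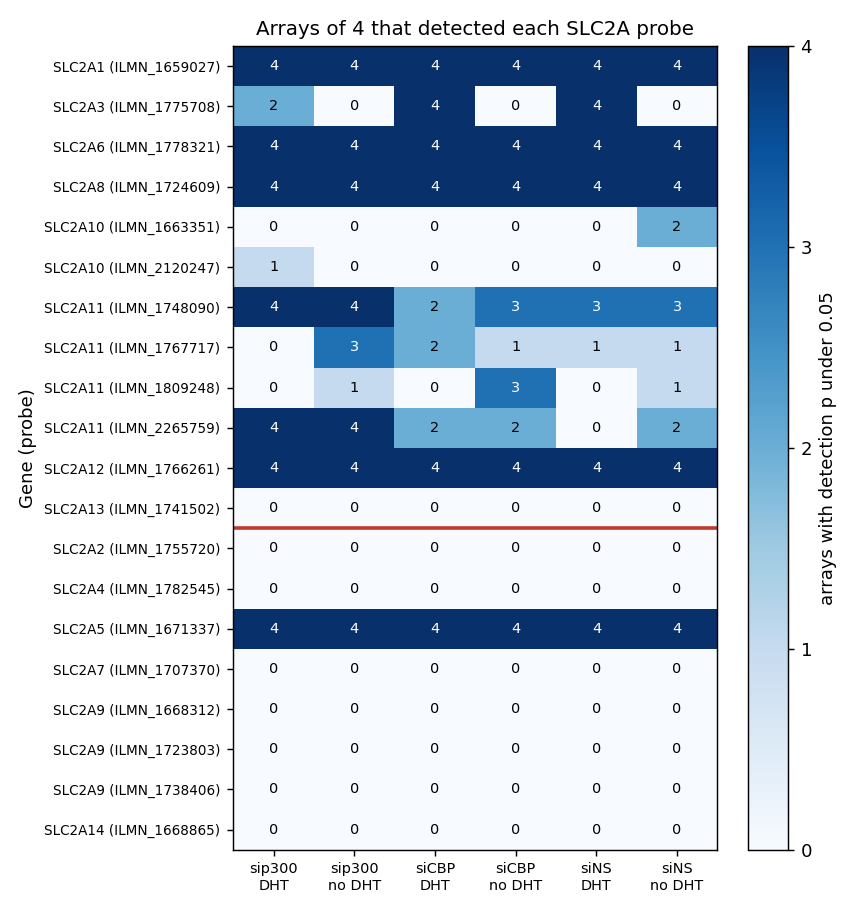
Number of arrays, of 4 in each group, on which each SLC2A probe had a detection p under 0.05. The 12 probes of the listed genes are above the line and 8 probes of other family genes below it. SLC2A3 was detected on 2, 4 and 4 arrays of the sip300, siCBP and siNS groups with DHT and on 0 without DHT, while SLC2A1, SLC2A6, SLC2A8 and SLC2A12 were detected on 4 of 4 in each group.

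SLC2A3 encodes the high-affinity glucose transporter best known from neurons, and lies on chromosome 12 at 7919230 to 7936187 (GRCh38.p14). Its probe (ILMN_1775708) had levels of 5.94, 4.75, 5.43 and 6.03 in sip300 cells with DHT, of which the first and the last were detected. In siCBP cells with DHT the levels were 7.70, 7.07, 7.02 and 7.85, and in siNS cells with DHT 8.33, 8.87, 7.56 and 8.15, with detection on 4 of 4 arrays in both groups. Without DHT its 12 levels lay between 4.55 and 4.85 over the 3 arms, all undetected, with detection p of 0.782 or more. The sip300 arrays with DHT lay below each siCBP and siNS array with DHT, with no overlap, and siCBP and siNS arrays overlapped. In bulk RNA, fewer cells carrying a transcript and less of it per cell cannot be told apart.

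The detection limit bears on each SLC2A3 value near background. The lowest level among detected probes was 5.70 to 5.92, depending on the array. In sip300 cells with DHT the detected arrays had detection p-values of 0.0260 and 0.0156, just inside the threshold, and the nearest undetected array had 0.194. Both detected arrays were on slide 1 and both undetected ones on slide 2; the part of the slide in this split was not tested. Against that limit no fold can be given in sip300 cells, where the mean with DHT, 5.54 ± 0.588 (SD, n = 4), was itself below it. SLC2A3 was at least 3.03-fold higher with DHT than without it in siCBP cells, and at least 5.44-fold higher in siNS cells. A bound here sets the mean of the group with DHT against the higher of each dim array's own level and its lowest detected signal. With DHT, siCBP cells averaged 7.41 ± 0.426 and siNS cells 8.23 ± 0.541 (SD, n = 4 each), a ratio of 0.568. In each of the 4 replicate numbers SLC2A3 followed the same order with DHT, sip300 lowest, siCBP between and siNS highest. Since SLC2A3 was chosen partly for its pattern under EP300 knockdown, the place of sip300 cells in that order is a description only.

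**Figure D2:**
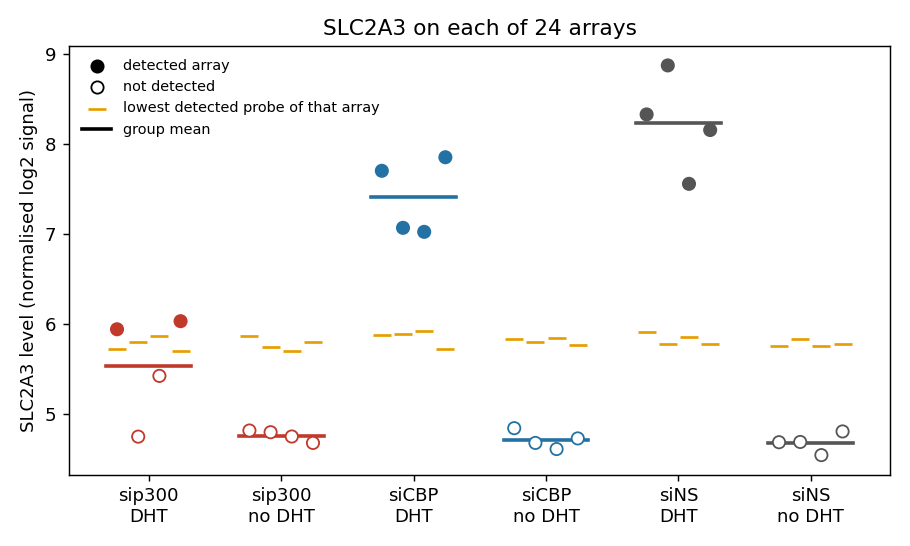
Normalised log2 level of SLC2A3 on each of 24 arrays by group. Filled points were detected, open points were not, long bars are group means and short orange bars the lowest detected level of the same array. With DHT the sip300 arrays lie between 4.75 and 6.03, the siCBP arrays between 7.02 and 7.85 and the siNS arrays between 7.56 and 8.87, while the 12 arrays without DHT lie under the limit.

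As a description, the group means of SLC2A3 ran from 8.23 in siNS and 7.41 in siCBP cells with DHT to 5.54 in sip300 cells with DHT. That last mean and those of the groups without DHT, 4.77 in sip300, 4.72 in siCBP and 4.69 in siNS cells, lay under the detection limit, where values have no order. The gap of 0.81 between siNS and siCBP cells with DHT was larger than the SD of either group, although their arrays overlapped.

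SLC2A1 encodes the widespread basal glucose transporter, which glucose shortage and hypoxia are known to raise, and lies on chromosome 1 at 42925353 to 42958868. It was called lower in sip300 than in siNS cells given DHT, the sole call among the 5 tested members in the fit without a block. Levels in sip300 cells with DHT were 9.38, 10.39, 9.36 and 9.56, against 10.82, 11.72, 10.12 and 10.69 in siNS cells with DHT (probe ILMN_1659027). The ranges overlapped through replicate 2, the brightest of both groups, but within each replicate number the sip300 array was lower, with differences of -1.44 to -0.76. SLC2A1 fell by 1.17 ± 0.320 to 44.6% of the siNS level (limma adjusted p = 0.0179, and 6.82e-05 with the block). In this comparison 8.18% of 12438 genes were called higher and 6.41% lower (13.9% and 11% with the block), against which the 1 lower call among 5 members is to be read. The call was lost without sip300 replicate 1 (adjusted p = 0.0597) or 3 (0.0556) and without siNS replicate 2 (0.0718). Within slides the difference was -1.74 on slide 1 (adjusted p = 0.0409) and -0.59 on slide 2 (0.510), where the arrays compared did not all carry the same replicate numbers.

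Without DHT the levels of SLC2A1 were 9.13, 9.44, 9.21 and 9.13 in sip300 cells, against 9.84, 10.49, 9.40 and 10.27 in siNS cells. All 4 pairs were lower in sip300 cells, with differences of -1.14 to -0.20. The difference of -0.77 ± 0.320 was not called without the block (adjusted p = 0.130) and was called with it (0.00278). Here 5.52% of genes were called higher and 4.42% lower, and 11.6% and 9.29% with the block. SLC2A1 in siCBP cells measured 10.61, 11.41, 10.20 and 10.32 with DHT and 9.72, 10.52, 9.46 and 9.98 without it, values that overlapped those of siNS cells. Its differences from siNS cells, -0.21 with DHT (95% confidence interval -0.87 to 0.46) and -0.08 without (-0.75 to 0.58), were not called in either fit. Set against siCBP cells, sip300 cells differed by -0.96 ± 0.320 with DHT (adjusted p = 0.0599, block 0.000467) and by -0.69 ± 0.320 without it (0.215, block 0.00827), lower in 4 of 4 pairs both times. Between these arms 9.73% of genes were called with DHT and 6.01% without it, and 19.3% and 15.5% with the block.

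SLC2A1 averaged higher with DHT than without it in each arm. In sip300 cells the difference was 0.44 ± 0.320, not called in either fit (adjusted p = 0.319 with the block and 1.00 without). In siCBP cells it rose in the fit with the block, by 0.71 ± 0.320 (0.0119, without the block 0.417). In siNS cells it rose likewise, by 0.84 ± 0.320 (0.00292 and 0.240). In each arm 4 of 4 pairs were higher with DHT, and the smallest pair difference was 0.16 in sip300, 0.34 in siCBP and 0.42 in siNS cells. Within slides 1 and 2 the difference was 0.15 and 0.74 in sip300, 1.01 and 0.41 in siCBP and 1.59 and 0.09 in siNS cells. The DHT response did not differ between arms at the threshold: sip300 minus siNS was -0.39 (95% confidence interval -1.33 to 0.55, adjusted p = 1.00, block 0.962). From high to low, the means were 10.84 for siNS and 10.63 for siCBP with DHT, 10.00 for siNS and 9.92 for siCBP without it, and 9.67 and 9.23 for sip300 with and without DHT. Only the gap between the siCBP group with DHT and the siNS group without it, 0.63, exceeded the larger SD of its neighbours.

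SLC2A12 encodes a glucose transporter that insulin can bring to the surface of muscle cells, and lies on chromosome 6 at 133987581 to 134052624. Its difference between sip300 and siNS cells ran opposite to that of SLC2A1: its levels in sip300 cells with DHT were 10.36, 10.27, 10.41 and 9.18, against 8.70, 9.72, 9.32 and 8.12 in siNS cells with DHT (probe ILMN_1766261). Without DHT the sip300 levels were 9.84, 9.79, 9.35 and 8.11 and the siNS levels 8.28, 8.88, 8.66 and 7.06. Each sip300 array exceeded the siNS array of its number in both conditions, while the ranges overlapped because replicate 4 was the lowest of its group in all 6 groups. With the block SLC2A12 rose by 1.09 ± 0.425 with DHT (adjusted p = 0.000569) and by 1.06 ± 0.425 without it (0.00104), about 2.13-fold and 2.08-fold. Without the block neither was called (limma adjusted p = 0.0892 and 0.119). Leaving out replicate 4 of the sip300 group gave 1.39 with DHT (adjusted p = 0.0464) and 1.44 without it (0.0359), and leaving out replicate 4 of the siNS group gave 0.81 (0.266) and 0.67 (0.374). Within slides the difference with DHT was 0.85 and 1.33, and without DHT 1.10 and 1.01.

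The siCBP arrays of SLC2A12 read 10.10, 9.94, 9.77 and 9.41 with DHT and 9.09, 9.39, 9.35 and 8.11 without it. They were above siNS in 4 of 4 pairs in both conditions, by 0.84 ± 0.425 and 0.77 ± 0.425, but neither difference was called (adjusted p = 1.00 and 0.999, block 0.107 and 0.180). In each of these 2 comparisons 0.0482% of genes were called, with 584 genes with DHT and 581 without it at an unadjusted p under 0.05. The sip300 and siCBP arms differed by 0.25 with DHT (95% confidence interval -0.63 to 1.13) and 0.29 without (-0.59 to 1.17), not called in either fit. With DHT, SLC2A12 rose in all 3 arms in the fit with the block, by 0.78 ± 0.425 in sip300 (adjusted p = 0.0486), 0.82 ± 0.425 in siCBP (0.0160) and 0.74 ± 0.425 in siNS cells (0.0268), and in 4 of 4 pairs of each arm. Without the block the 3 differences had adjusted p of 1.00, 0.551 and 0.546. In siCBP cells the arrays with and without DHT did not overlap. Group means ran from 10.06 in sip300 and 9.80 in siCBP cells with DHT through 9.28 and 8.99 without it to 8.96 and 8.22 in siNS cells with and without DHT, and no gap between neighbours exceeded the larger SD. Group accounted for 52.6% and replicate number for 39.6% of the variation of SLC2A12 over the 24 arrays, and for 62.7% and 30.1% of that of SLC2A1.

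**Figure D3:**
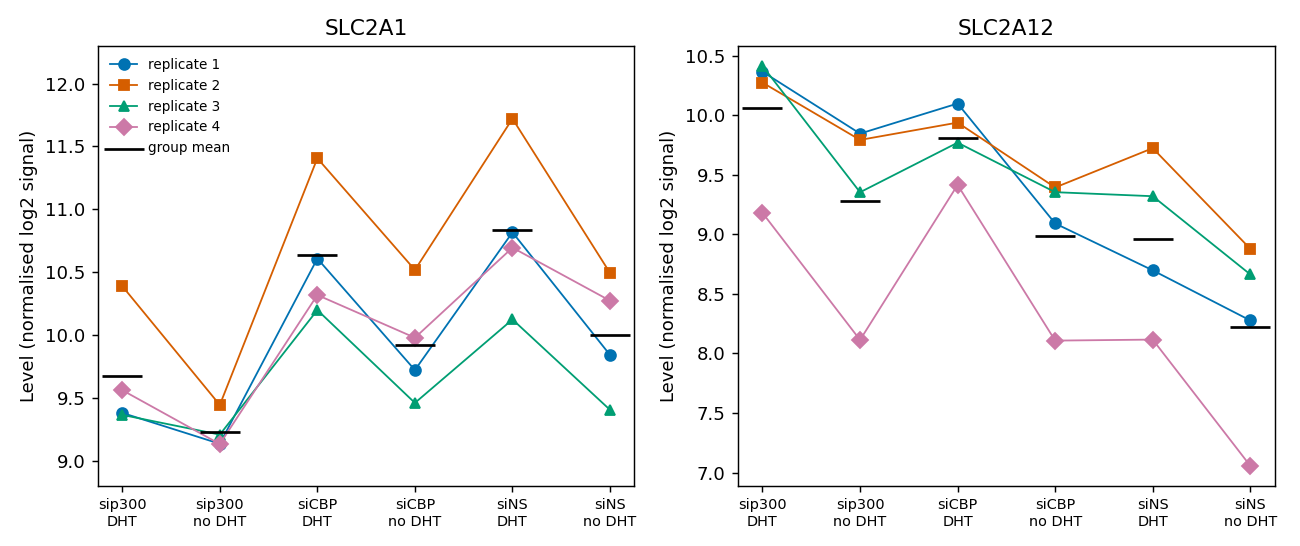
Normalised log2 level of SLC2A1 and SLC2A12 in the 6 groups, with a line joining the arrays of each replicate number and a bar at the group mean. Replicate 2 is highest for SLC2A1 and replicate 4 lowest for SLC2A12 in 6 of 6 groups, and SLC2A1 is lower while SLC2A12 is higher in sip300 than in siNS cells within each number.

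The 250 bases before the annotated start of both genes are shown because these 2 genes differed between sip300 and siNS cells in opposite directions. They come from RefSeq on GRCh38.p14, which held an entry for 7 of the 8 genes, and are written 5′ to 3′ along the gene on the minus strand, with any searched motif in capitals.
SLC2A1, chr1:42958869-42959118: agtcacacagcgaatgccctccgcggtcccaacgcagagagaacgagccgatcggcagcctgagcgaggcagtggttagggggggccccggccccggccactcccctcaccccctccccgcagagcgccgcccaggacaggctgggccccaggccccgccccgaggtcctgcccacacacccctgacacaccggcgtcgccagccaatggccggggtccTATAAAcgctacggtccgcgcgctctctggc
SLC2A12, chr6:134052625-134052874: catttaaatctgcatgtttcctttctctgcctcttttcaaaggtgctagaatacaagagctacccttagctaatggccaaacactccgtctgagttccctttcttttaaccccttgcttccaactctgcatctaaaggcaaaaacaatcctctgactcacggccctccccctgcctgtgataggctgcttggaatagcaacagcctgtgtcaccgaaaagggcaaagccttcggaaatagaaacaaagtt
The windows differed in composition, with 72.4% G and C before SLC2A1 and 46% before SLC2A12. The letters searched, on both strands, were AGAACA, a hexamer that steroid hormone receptors bind, the TATA box TATAAA, and the core of hypoxia response elements in both of its common forms. The first form of that core is ACGTG. The other form found in many promoters of genes induced by low oxygen reads GCGTG. Before SLC2A1 the search found TATAAA starting 31 bases before the start, which 10.7% of 35116 windows of this length hold, and before SLC2A12 it found none of them, so no matches overlapped. AGAACA is in 12.4% of the windows and, among the members, in that of SLC2A8, and 43.2% hold a hypoxia core. A match is a description and not a site, and a missing match says only that those letters are not in these windows.

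SLC2A11 encodes a carrier of glucose and fructose and lay near the detection limit, with levels between 5.61 and 7.46 and a median of 6.48 over 24 arrays (probe ILMN_1748090). It was detected on 4 of 4 arrays in both sip300 groups and on 2 or 3 of 4 in the others. Means were 6.87 ± 0.325 in sip300 and 6.17 ± 0.522 in siNS cells with DHT, and 6.81 ± 0.660 and 6.11 ± 0.538 without it (SD, n = 4 each). The differences, 0.70 ± 0.343 in both conditions and higher in 4 of 4 pairs each, were not called in either fit (adjusted p = 0.180 and 0.210, block 0.0887 and 0.103). A second probe, ILMN_2265759, was also detected on 4 of 4 arrays of each sip300 group and differed by 0.63 with DHT and 0.65 without it. In siNS cells it was detected on 0 of 4 arrays with DHT and on 2 of 4 without it. The probes ILMN_1767717 and ILMN_1809248 differed by -0.01 and 0.19 with DHT. ILMN_1767717 was detected there on 0 of 4 sip300 and 1 of 4 siNS arrays, and ILMN_1809248 on 0 of 4 in both groups. Differences of signals at background cannot show whether these 2 probes moved like the others. With DHT against none, the brightest probe differed by 0.07 in sip300, 0.03 in siCBP and 0.06 in siNS cells, and the other 3 probes by -0.57 to 0.10, the lowest being ILMN_1809248 in siCBP cells. That probe was detected there on 0 of 4 arrays with DHT and on 3 of 4 without it.

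SLC2A6 and SLC2A8, carriers found largely on inner membranes such as the lysosome, varied little across the 6 groups. SLC2A6 had levels from 9.27 to 10.18 with a median of 9.90, and SLC2A8 from 10.49 to 11 with a median of 10.72. Neither was called in any of the 12 comparisons in either fit. With DHT in siNS cells SLC2A6 differed by -0.08 (95% confidence interval -0.38 to 0.22) and SLC2A8 by -0.11 (-0.39 to 0.17). Between sip300 and siNS cells with DHT the differences were 0.01 (-0.29 to 0.31) and 0.21 (-0.07 to 0.49), intervals that do not hold the -1.17 of SLC2A1. SLC2A6 was lower in siCBP than in siNS cells with DHT in 4 of 4 pairs, with a difference of -0.30 (95% confidence interval -0.60 to 0.00) that was not called (adjusted p = 1.00). 

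**Figure D4:**
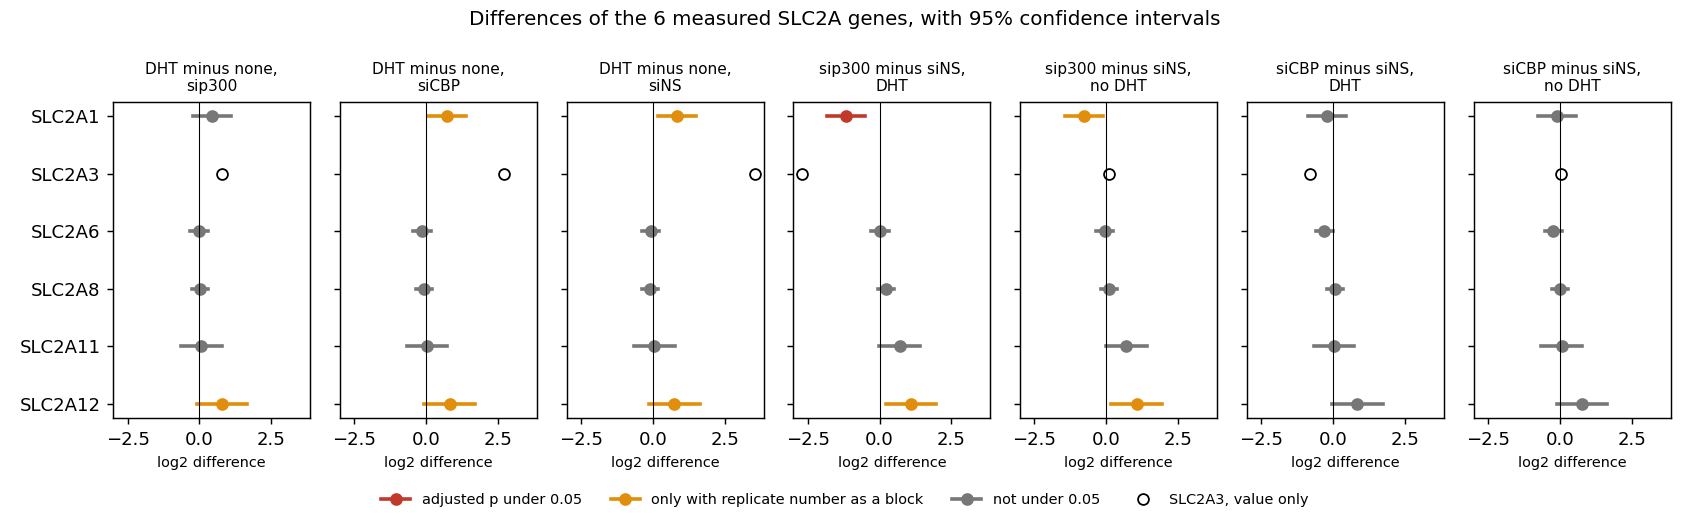
Log2 differences of the 6 measured SLC2A genes in 7 comparisons, with 95% confidence intervals from the limma fit without a block (n = 4 arrays per group). Red marks an adjusted p under 0.05 in that fit, orange in the fit with replicate number as a block alone, and grey in neither, while open circles show SLC2A3 as a value. SLC2A1 (-1.17) is red for sip300 against siNS with DHT, and SLC2A12 is orange in 5 of the 7 comparisons.

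Counted over the 5 tested members, DHT gave 0 calls in each arm without the block, with 0 members in sip300, 1 in siCBP and 1 in siNS cells at an unadjusted p under 0.05 (limma). With the block 1 member was higher in sip300, 2 in siCBP and 2 in siNS cells, and 0 were lower in any arm. Among all genes 0.651% were called higher and 0.0563% lower in sip300 cells (block 1.25% and 0.394%), 1.37% and 0.852% in siCBP cells (2.48% and 2.39%), and 1.74% and 0.957% in siNS cells (3.29% and 2.64%). The median difference of the 5 members was 0.07 in sip300, 0.03 in siCBP and 0.06 in siNS cells, against medians of -0.02 over all genes in each. Knockdown of EP300 gave 0 higher and 1 lower of 5 with DHT, and with the block 1 higher and 1 lower both with and without DHT. Over all genes that knockdown gave 8.18% higher and 6.41% lower with DHT. With the block the shares were 13.9% and 11% with DHT, and 11.6% and 9.29% without it. Of the differences of DHT responses between arms, 0 of 5 members were called in the 3 comparisons, with 0 at an unadjusted p under 0.05. There 0.00804% of all genes were called for sip300 against siNS, and 0% for siCBP against siNS and for sip300 against siCBP, with 373, 196 and 343 genes at an unadjusted p under 0.05.

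Genes outside the family were ranked by how closely their levels followed each member over the 24 arrays, among 10337 genes detected throughout at least 1 group. These correlations are descriptions: the arrays share groups, replicate numbers and slides. SLC2A3 was followed most closely by RUNX1, a transcription factor gene (r = 0.970), PGC, encoding the protease pepsinogen C (0.958), the keratin gene KRT73 (0.958), the kinase gene STK17B (0.938) and MICAL1, encoding an actin-oxidising enzyme (0.931). RUNX1 had the same detection pattern, 2 of 4 arrays in sip300 and 4 of 4 in siCBP and siNS cells with DHT and 0 without, with means of 5.92, 6.76 and 7.56 in the first 3 groups. KRT73 had this detection pattern too. SLC2A3 itself was detected on 10 of 24 arrays, so its correlations rest partly on levels under the detection limit, which have no order. SLC2A1 was followed by VEGFA, the vascular growth factor gene (0.932), ANKRD37, known as a hypoxia-induced gene (0.914), and HK2, a hexokinase gene (0.908). Within groups the correlations with SLC2A1 were 0.913 for VEGFA, 0.875 for ANKRD37 and 0.773 for HK2. Those with SLC2A3 were lower within groups, at 0.743 for RUNX1, 0.495 for PGC, 0.670 for KRT73, 0.172 for STK17B and 0.523 for MICAL1. SLC2A12 was followed by CDK5R1 (0.870), AKR7A2 (0.821) and TXNDC16 (0.803). For SLC2A6, SLC2A8 and SLC2A11 the closest genes reached 0.768 (TMCO1), 0.805 (NCOA5) and 0.787 (LDAF1).

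Glucose is trapped in the cell by hexokinases, and 4 of the 10 genes listed for hexose phosphorylation were measured. HK2 levels with DHT lay between 8.56 and 9.33 in sip300 cells and between 9.72 and 11.28 in siNS cells, with no overlap. HK2 fell by 1.29 ± 0.376 in that comparison (limma adjusted p = 0.0246), the single call of the list against siNS, where the median of its 4 genes was -0.25 and that of all genes 0.03. Over all genes 8.18% were called higher and 6.41% lower there. Without DHT the HK2 difference was -0.82 ± 0.376 (adjusted p = 0.176, block 0.00965). With DHT against none HK2 rose in the fit with the block, by 1.04 in siCBP (adjusted p = 0.00414) and 0.99 in siNS cells (0.00575), in 4 of 4 pairs each, and without the block neither was called (0.225 and 0.235). In sip300 cells it differed by 0.52, also higher in 4 of 4 pairs, not called in either fit (block adjusted p = 0.409). The difference of its responses between sip300 and siNS cells, -0.47, was not called either (adjusted p = 1.00, block 0.967). HK1, the housekeeping hexokinase gene, fell in sip300 against siCBP cells with DHT, by 0.40 ± 0.124 (adjusted p = 0.0442), and HK2 stood at -1.06 ± 0.376 there (0.0766, block 0.00163). Between those groups 9.73% of all genes were called, and 19.3% with the block.

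Of 18 genes listed for the amount and traffic of glucose transporters, 14 were measured. TXNIP, encoding an arrestin-like protein known to restrain SLC2A1 at the surface, fell with DHT in siCBP cells by 1.01 ± 0.242 (limma adjusted p = 0.0221) and in siNS cells by 1.07 ± 0.242 (0.0128). In sip300 cells its difference was -0.39 ± 0.242 (adjusted p = 1.00), and the difference of responses between sip300 and siNS, 0.68 ± 0.343, was not called (adjusted p = 1.00). With DHT, TXNIP levels were 12.19 to 12.68 in sip300 and 11.14 to 12.07 in siNS cells, higher by 0.80 ± 0.242 (adjusted p = 0.0306) with no overlap. TBC1D4, encoding the Akt substrate that holds back vesicles carrying the insulin-responsive transporter, rose with DHT in all 3 arms, by 1.15 ± 0.205 in sip300 (adjusted p = 0.00391), 0.88 ± 0.205 in siCBP (0.0184) and 1.09 ± 0.205 in siNS cells (0.00255). RHOQ, a small GTPase of that transport, and VPS35, a retromer subunit, rose in sip300 against siNS cells with DHT by 0.65 ± 0.178 and 0.53 ± 0.176 (adjusted p = 0.0180 and 0.0466). That made 3 of 14 higher and 0 lower there, and 5 and 1 with the block, beside 8.18% and 6.41% of all genes, and 13.9% and 11% with the block. Against siCBP cells, sip300 cells with DHT also had higher TXNIP, by 1.02 ± 0.242 (adjusted p = 0.0104), and TBC1D4 fell there by 0.68 ± 0.205 (0.0378) and without DHT by 0.95 ± 0.205 (0.00743).

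**Figure D5:**
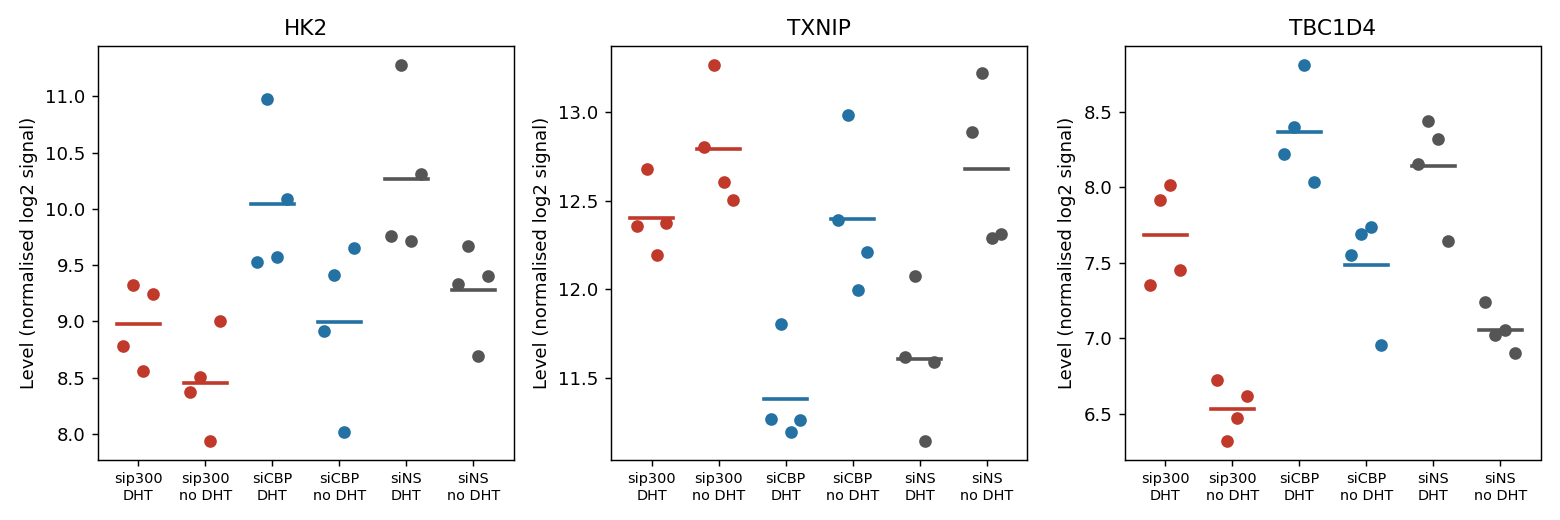
Normalised log2 level of HK2, TXNIP and TBC1D4 on each array by group, with bars at the group means. With DHT, HK2 lies at 8.56 to 9.33 in sip300 against 9.72 to 11.28 in siNS cells, TXNIP at 12.19 to 12.68 against 11.14 to 12.07, and TBC1D4 is higher with DHT than without in each arm.

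Among glycolysis and lactate export genes, 20 of 24 were measured. PKM, the pyruvate kinase gene, fell in sip300 against siNS cells by 0.59 ± 0.161 with DHT (limma adjusted p = 0.0175) and by 0.60 ± 0.161 without it (0.0193). SLC16A7, a monocarboxylate carrier gene, rose in sip300 against siNS cells with DHT by 1.23 ± 0.405 (adjusted p = 0.0446). It was detected on 4 of 4 sip300 arrays and on 1 of 4 siNS arrays there, whose mean of 5.37 was under the detection limit, so the size of that difference is uncertain. These gave 1 higher and 1 lower of 20 with DHT and 0 and 1 without it. Over all genes 8.18% were called higher and 6.41% lower with DHT, and 5.52% and 4.42% without it. With the block the counts were 3 higher and 7 lower with DHT and 1 and 9 without it, among them GPI, LDHA, ALDOA and ENO1 lower both times. Over all genes the block gave 13.9% higher and 11% lower with DHT, and 11.6% and 9.29% without it. The list's median difference was -0.27 with DHT and -0.23 without it, against 0.03 for all genes. DHT called 0 of the 20 in any arm without the block, and 1 with it, PFKFB2 in sip300 cells (1.00 ± 0.310, block adjusted p = 0.00205). For DHT in that arm 1.25% of all genes were called higher with the block and 0.651% without it. Against siCBP cells, PKM fell in sip300 cells by 0.66 ± 0.161 with DHT (adjusted p = 0.0128) and 0.57 ± 0.161 without it (0.0380), and ENO2, the enolase gene typical of neurons, rose without DHT by 1.49 ± 0.436 (0.0439).

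Of 18 other sugar carriers 11 were measured. SLC45A3, a prostate gene of the sugar carrier type known as androgen-induced, rose with DHT by 3.68 ± 0.406 in sip300, 4.17 ± 0.406 in siCBP and 4.10 ± 0.406 in siNS cells (limma adjusted p = 6.64e-06, 1.02e-06 and 9.02e-07). SLC5A1, the sodium-coupled glucose transporter gene, was not well above background on any of the 4 sip300 arrays without DHT and was detected on 4 of 4 siNS and 4 of 4 siCBP arrays without DHT. It was at least 1.49-fold lower in sip300 than in siNS cells (adjusted p = 0.00384) and at least 1.46-fold lower than in siCBP cells (0.00635). In the comparison with siCBP cells without DHT 3 of the 11 carriers were called lower and 0 higher, beside 6.01% of all genes in either direction. The others were SLC37A3, of the sugar-phosphate exchanger family, which fell by 0.76 ± 0.190 (adjusted p = 0.0182), and SLC45A2, known from pigment cells, which fell by 0.96 ± 0.248 (0.0220) with 2 of 4 sip300 arrays detected. Of 16 genes for fructose, polyols and inositol, the substrates of SLC2A11 and SLC2A13 among others, 12 were measured. Both with and without DHT IMPA2, an inositol monophosphatase gene, fell in sip300 against siNS cells, by 0.69 ± 0.141 and 0.57 ± 0.141 (adjusted p = 0.00259 and 0.0121). ITPKB, an inositol trisphosphate kinase gene, rose by 0.92 ± 0.216 and 0.71 ± 0.216 (0.00691 and 0.0387), and against siCBP cells with DHT by 0.77 ± 0.216 (0.0266), and IMPA1 rose with DHT by 0.59 ± 0.190 (0.0391). With DHT in siNS cells ITPKA, another kinase of this kind, fell by 0.80 ± 0.205 (adjusted p = 0.0328). Of these 12 genes sip300 against siNS gave 2 higher and 1 lower with DHT, and 1 and 1 without it. Over all genes 8.18% were called higher and 6.41% lower with DHT, and 5.52% and 4.42% without it. IMPA2 also averaged lower in siCBP than in siNS cells, with no overlap, at 10.22 against 10.58 with DHT and 9.97 against 10.37 without it. Those differences were not called in either fit.

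Some markers moved with the same groups. The summed level of the 8 luminal prostate markers was 79.9 in sip300, 85.9 in siCBP and 85.9 in siNS cells with DHT, and 73.0, 77.8 and 78.3 without it. Of these markers 0 were called higher and 3 lower in sip300 against siNS cells with DHT, and 0 and 2 without it. With the block the counts were 1 and 4 with DHT and 0 and 3 without it. Over all genes 8.18% were called higher and 6.41% lower with DHT, and 5.52% and 4.42% without it. The block raised these shares to 13.9% and 11% with DHT, and to 11.6% and 9.29% without it. The lower sum with DHT lay mainly in KLK3 (8.73 in sip300 and 10.84 in siNS cells), KLK2 (8.63 and 10.59) and TMPRSS2 (9.99 and 12.14), prostate genes known to respond to androgen. KRT18 (8.45 and 8.86) and KRT8 (10.79 and 10.96) also averaged lower, while HOXB13 averaged 10.00 and 9.98, FOLH1 10.74 and 10.23, and EPCAM 12.62 and 12.31. The 6 stromal markers summed to 36.1 and 36.2 in sip300 cells with and without DHT and to 33.4 to 33.9 in the other 4 groups, and 1 of the 2 measured, ACTA2, was called higher in sip300 than in siNS cells. It encodes smooth muscle actin and was detected on 4 of 4 arrays in both sip300 groups and on 1 of 4 in each of the others. The other measured one, the collagen gene COL1A1, was detected on 3 of 4 siCBP arrays with DHT and on 4 of 4 elsewhere. With and without DHT its means were 7.12 and 7.11 in sip300, 6.40 and 6.33 in siCBP, and 6.66 and 6.61 in siNS cells. COL1A1 was not called in sip300 against siNS cells in either fit. COL1A2, COL3A1, DCN and LUM, the last 2 of which define fibroblasts, were detected on at most 1 array of a group. The 4 blood and nerve cell markers, of types rich in SLC2A3, summed to 20.3 in sip300, 20.5 in siCBP and 20.6 in siNS cells with DHT, and 3 of the 4 were undetected on all arrays. The 4 leukocyte markers summed to 21.1 to 21.7 over the groups, with 2 undetected throughout. The part of these markers in the differences of SLC2A1 and SLC2A12 was not tested.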

How the data were processed

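Total RNA from 24 samples was hybridised to Illumina bead arrays. The deposited signal table held each probe's mean bead intensity, before any normalisation. It had 48118 rows, and its 887 control rows were not used. Per the file headers each intensity has a detection p-value, which moved in steps of 1 in 770. The authors' processed values were on a log2 scale, per the submitters' processing notes after limma, and were used as an alternative. Per array their correlation with the values below was at least 0.998, and column medians were 5.45 to 5.47, and further steps are not given in the sources used here.

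Background correction and quantile normalisation used neqc (limma 3.58.1, R 4.3.3, offset 16), which took the detection p-values instead of negative control beads. Of 47231 probes, 23038 had a detection p under 0.05 on at least 4 arrays. Of these 16655 named 1 gene, 4 several and 6379 none, and the last 2 kinds were left out. The brightest kept probe stood for each of 12438 genes. Symbols came from the platform annotation, updated by Entrez identifier for 30074 probes. The limma model held 6 means, leaving 18 residual degrees of freedom, and gave 12 comparisons. The fit without a block was run on simulated data in which arrays varied independently. Those data held no effect of replicate number, so that run does not bear on the pairing or on the fit with the block. Replicate numbers pair the samples by the data: 60 pairs of arrays with the same number had correlated deviations from group means (r = 0.150 to 0.596), against a median of -0.140 for different numbers, so the fit with the number as a block (15 degrees of freedom) is given beside the main one. The SE printed is from the fit without a block.

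The members, gene lists and tests were chosen with earlier results of these data known. The text names all members, the targets, called list members (up to 4 per list and comparison, with a few called in the block fit alone, named after their values were seen) and the 3 genes (5 for SLC2A3) most correlated with each member. Alternatives were the block, slide, normalisation, authors' values, filter, probe choice, samples in the fit and leaving out each array.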

Additional observations from a re-analysis of the deposited data

Results flagged for a closer look

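In sip300 cells with DHT, SLC2A12 on replicate 4 had a level of 9.18, far below the other 3 arrays at 10.27 to 10.41. Its gap to the nearest array was 0.887 of the group's whole range, above the critical value for 4 samples. About 1 in 20 groups would be picked out this way by chance, and of 36 groups examined 1 was. Replicate 4 was the lowest SLC2A12 array in all 6 groups, so a low value is not particular to this one.

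SLC2A5, encoding the fructose transporter and outside the list examined, was detected on 24 of 24 arrays, with levels from 8.97 to 9.73 and a median of 9.34.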

How the results depend on the processing

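With replicate number as a block, 1 member was called for DHT in sip300, 2 in siCBP and 2 in siNS cells, 2 for sip300 against siNS cells with and 2 without DHT, and 1 for sip300 against siCBP cells with and 1 without DHT; without the block these counts were 0, except 1 for sip300 against siNS with DHT. All calls that the block added were of SLC2A1 or SLC2A12, and it changed no other call of a member. The shares of all genes called with the block in these comparisons are given above. On the authors' processed values the counts for the same comparisons were 1, 2, 2, 3, 3, 3 and 1, with 1 for siCBP against siNS with DHT, and SLC2A11 joined for sip300 against siNS (adjusted p = 0.0287 with and 0.0378 without DHT). Replicate number held 2.66% of the variation of SLC2A1 and 3.96% of that of SLC2A12 in the authors' values, against 30.1% and 39.6% here, and over all genes the authors' values gave 4227 calls for sip300 against siNS with DHT, 143 for siCBP against siNS with DHT and 1341 for DHT in siNS cells, against 1815, 6 and 335. For sip300 against siNS without DHT the authors' values gave 3817 calls over all genes, against 1236 here. For sip300 against siCBP they gave 3578 with DHT and 3162 without it, against 1210 and 748. For DHT they gave 379 in sip300 and 1058 in siCBP cells, against 88 and 277. Slide 2 alone gave 0 calls for sip300 against siNS with DHT and slide 1 alone 1; the cause was not tested. Quantile normalisation without background correction gave 2 there and 1 for sip300 against siCBP with DHT, where requiring detection on all 24 arrays also gave 1. Over all genes quantile normalisation gave 1998 and 1405 calls in these 2 comparisons, against 1815 and 1210. That normalisation put SLC2A3 at 7.37 and 6.91 in sip300 cells with and without DHT, 8.24 and 6.84 in siCBP cells, and 8.76 and 6.78 in siNS cells, since background is then not removed. Leaving out 1 array at a time gave 0 to 1 calls for sip300 against siNS without DHT, 0 to 2 with DHT, 0 to 1 for sip300 against siCBP with DHT and 0 to 0 in the other comparisons. SLC2A3 means then ranged from 5.37 to 5.80 and 4.75 to 4.79 in sip300 cells with and without DHT, 7.26 to 7.54 and 4.68 to 4.75 in siCBP cells, and 8.01 to 8.45 and 4.64 to 4.73 in siNS cells. No called difference of a tested member changed sign under any alternative run. Signals near background limit SLC2A3 without DHT, SLC2A10, SLC2A11 and SLC2A13.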
